A study of Homo sapiens with 24 samples.

Results

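The genes described here are 10 direct transcriptional targets of the tumour suppressor p53, followed in U251 cells, an established human glioblastoma line that is known to carry mutant p53. They are MDM2, GADD45A, BTG2, SESN1, TP53INP1, ZMAT3, FAS, TNFRSF10B, FDXR and RRM2B. Every probe whose transcript belongs to one of these genes was taken, which gave 17 probes of the 58201 on the array, for 10 genes of the 24847 with a symbol. All 17 probes, and so all 10 genes, passed the filter on dim probes, which kept 22970 probes and 14235 genes with a symbol. The microarrays measure mRNA levels, so the mutant status stands here as background.

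U251 cells deprived of steroid hormones for 24 h were exposed to G-1, an agonist of the membrane estrogen receptor GPER, or to the vehicle DMSO (0.1% by the labels). The methods of the paper give a lower percentage of DMSO than the labels do. There were 6 groups of 4 independent biological replicates: the vehicle, G-1 at its IC50 (a dose the labels do not give as a number) and G-1 at 1 µM, each for 24 h and for 72 h. All groups are 1 cell line, and no group with wild-type p53 was analysed. The labels contradict themselves on duration in a pair of groups, IC50 for 24 h and 1 µM for 72 h, and there the sample titles were followed. In a bulk RNA sample, a lower signal from fewer cells of a kind and a lower amount of mRNA per cell cannot be told apart.

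In normal cells, p53 is stabilised by DNA damage and other stress, binds a response element made of a pair of half-sites next to each other, and switches on genes for cell cycle arrest, repair and cell death. MDM2, one of these targets, marks p53 for degradation and closes a negative feedback loop. Mutations of p53 found in tumours mostly hit the domain that binds DNA, and many of its targets can also be induced by other transcription factors.

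The promoters of the genes are shown because the response element is the feature that ties them to p53. RefSeq promoter windows of 300 bases, from 250 before to 50 after a transcription start (GRCh38.p14), were read for 6 of the 10 genes. They were searched for a p53 response element, meaning 2 adjacent copies of the half-site consensus with at most 1 base between them, at most 3 mismatches in the 20 letters and the central C and G of each half-site intact. The consensus equals its own reverse complement, so 1 pass covers both strands. Such an element was found for 4 genes, SESN1, FAS, MDM2 and FDXR, and none was found in the windows of BTG2 and ZMAT3. Among all 27305 genes with a window, 2.912% held one. The stretches below run 5′ to 3′ on the strand of the gene, with the element in capitals.
SESN1, chr6:109008988-109009067, minus strand: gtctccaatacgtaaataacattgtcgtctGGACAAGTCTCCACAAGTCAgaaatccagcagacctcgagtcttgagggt
FAS, chr10:88991279-88991358, plus strand: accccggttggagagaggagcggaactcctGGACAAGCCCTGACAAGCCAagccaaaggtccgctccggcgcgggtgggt
MDM2, chr12:68808893-68808972, plus strand: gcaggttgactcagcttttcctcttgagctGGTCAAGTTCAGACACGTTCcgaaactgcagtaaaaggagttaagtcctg
FDXR, chr17:74872966-74873045, minus strand: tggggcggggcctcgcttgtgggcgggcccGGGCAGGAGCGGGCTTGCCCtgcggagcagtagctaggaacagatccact

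The elements of FAS and MDM2 differed from the consensus at 2 of 20 letters, and those of SESN1 and FDXR at 3 of 20. The starts next to the elements of SESN1, FAS and MDM2 lie inside the span of the gene, whereas that of FDXR is the outer end of the gene. A match is a description of the sequence only. The 4 genes with an element did not share a direction at G-1 1 µM 72 h: FAS rose, FDXR fell, and MDM2 and SESN1 did not pass the test, as given below.

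Signals are log2 values from which the 75th percentile of the same array was subtracted, so that a value of 0 is as bright as that percentile and a difference of 1 is a 2-fold change. The brightest probe stands for a gene unless another is named, and levels of different genes are not set against each other. A gene is said to have risen or fallen when the adjusted p of limma (Benjamini-Hochberg over the 22970 probes) was under 0.05. The 24 arrays lay on 3 slides, with between 38.0% and 44.5% of probes well above background. The third slide, scanned in a second session, held all 8 G-1 1 µM arrays and no others, so the effect of this dose and an offset of that slide cannot be told apart in comparisons with DMSO. The comparison of 72 h with 24 h at G-1 1 µM lies within that slide, and a constant offset of the slide cancels in the interaction of dose with duration.

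The 10 markers of glioma and astroglial cells were all well above background on all arrays. Of the 22 markers of neurons, oligodendrocytes, leukocytes and endothelium, 11 passed the filter on dim probes. They were 5 of 6 neuronal, 3 of 5 oligodendrocyte, 1 of 6 leukocyte and 2 of 5 endothelial markers. Of the neuronal markers, 4 were well above background on all arrays, and only SYP did not pass the filter. Among the other markers that did not pass were PTPRC, AIF1, ITGAM, PECAM1, CLDN5, TEK and MAG. At G-1 1 µM 72 h, 8 of the 10 glioma markers fell and 1 rose, where 31% of all genes fell and 35.2% rose. GFAP, an astrocyte filament protein, had a log2 fold change of -2.71 and S100B one of -1.96. The median log2 signal of the glioma list was 5.06 to 5.33 on the G-1 1 µM 72 h arrays and 5.82 to 6.01 on the DMSO 72 h arrays. At 24 h the list stood higher with G-1, at 6.36 to 6.94 (IC50) and 6.5 to 7.01 (1 µM) against 5.79 to 6.31 in DMSO. However, at IC50 0 of the 10 markers rose and 0 fell, beside 0.246% of all genes that passed in either direction. The median of the log2 fold changes of the markers was -0.02 there. At 1 µM only 1 of the 10 markers rose, beside 20% of all genes, and 1 fell, beside 10.5%. The median of the log2 fold changes of the markers at 1 µM also had the other sign (-0.14). At G-1 1 µM 72 h, 3 of 3 oligodendrocyte markers fell, 3 of 5 neuronal markers fell and 2 rose, 1 of 2 endothelial markers fell and the 1 leukocyte marker rose. These counts stand beside the same shares of all genes, 31% lower and 35.2% higher. The part of these shifts in the results below was not tested.

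At G-1 IC50, none of the 10 genes rose or fell at either duration. With limma, 0 of 10 passed at 24 h, where 0.246% of all genes did, and 0 of 10 passed at 72 h, where 0.906% did. At an unadjusted p under 0.05 the counts were 1 of 10 (FAS) at 24 h, beside 4.64% of all genes, and 0 of 10 at 72 h, beside 9.62%, and the methods' t-test, with a fold change above 2, gave 0 at both. At 24 h, 0 of 10 had groups that did not overlap, beside 2.76% of all genes. The 95% intervals of the log2 fold change at 24 h reached at most 0.53 from 0, for SESN1 (-0.18, interval -0.53 to 0.17). At 72 h they reached 0.65 for SESN1 (0.30, interval -0.04 to 0.65) and RRM2B (0.29, interval -0.06 to 0.65), so that a 2-fold change lay outside the intervals of all 10 genes at this dose.

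Small differences at G-1 IC50 72 h were nevertheless ordered for 3 genes. MDM2 had log2 signals of 0.21, 0.25, 0.25 and 0.15 in DMSO 72 h and of 0.32, 0.28, 0.37 and 0.43 in G-1 IC50 72 h. SESN1, a stress-induced inhibitor of mTORC1 signalling, had -0.77, -0.69, -1.16 and -0.65 against -0.60, -0.63, -0.58 and -0.26. RRM2B, the p53-inducible subunit of ribonucleotide reductase, had 0.85, 0.94, 0.98 and 0.83 against 1.11, 1.03, 1.11 and 1.52. By the brightest probe of each of these 3 genes, the 4 treated arrays lay above the 4 DMSO arrays. Such an order always gives an exact two-sided permutation p of 0.0286, the smallest that 4 against 4 arrays can give. For genes picked by that order the p adds no further support, and it was not adjusted for the 10 genes. Groups that did not overlap were seen for 7.55% of all genes, and with the treated arrays higher for 2.66%. The log2 fold changes were 0.13, 0.30 and 0.29, with adjusted p values of limma of 0.784, 0.652 and 0.682. The groups overlapped for the other probes of MDM2, which gave 0.09 each, and for the dimmer probe of RRM2B (0.01). For the dimmest probe of FAS, the treated arrays all lay below those of DMSO (-0.51, adjusted p of limma 0.399). Under normexp background correction, none of the 10 genes had groups that did not overlap. DMSO and G-1 IC50 arrays shared the first and second slides. Within the first slide, with only 1 treated array against 2 of DMSO, the differences were 0.07 for MDM2, 0.045 for SESN1 and 0.14 for RRM2B. Within the second slide, with 3 against 2 arrays, the differences were 0.14, 0.48 and 0.33. With the slide as a block they were 0.10, 0.28 and 0.23. Replicate 4 of G-1 IC50 72 h was the highest of its group for MDM2, SESN1 and RRM2B and stood low for FDXR.

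**Figure D1:**
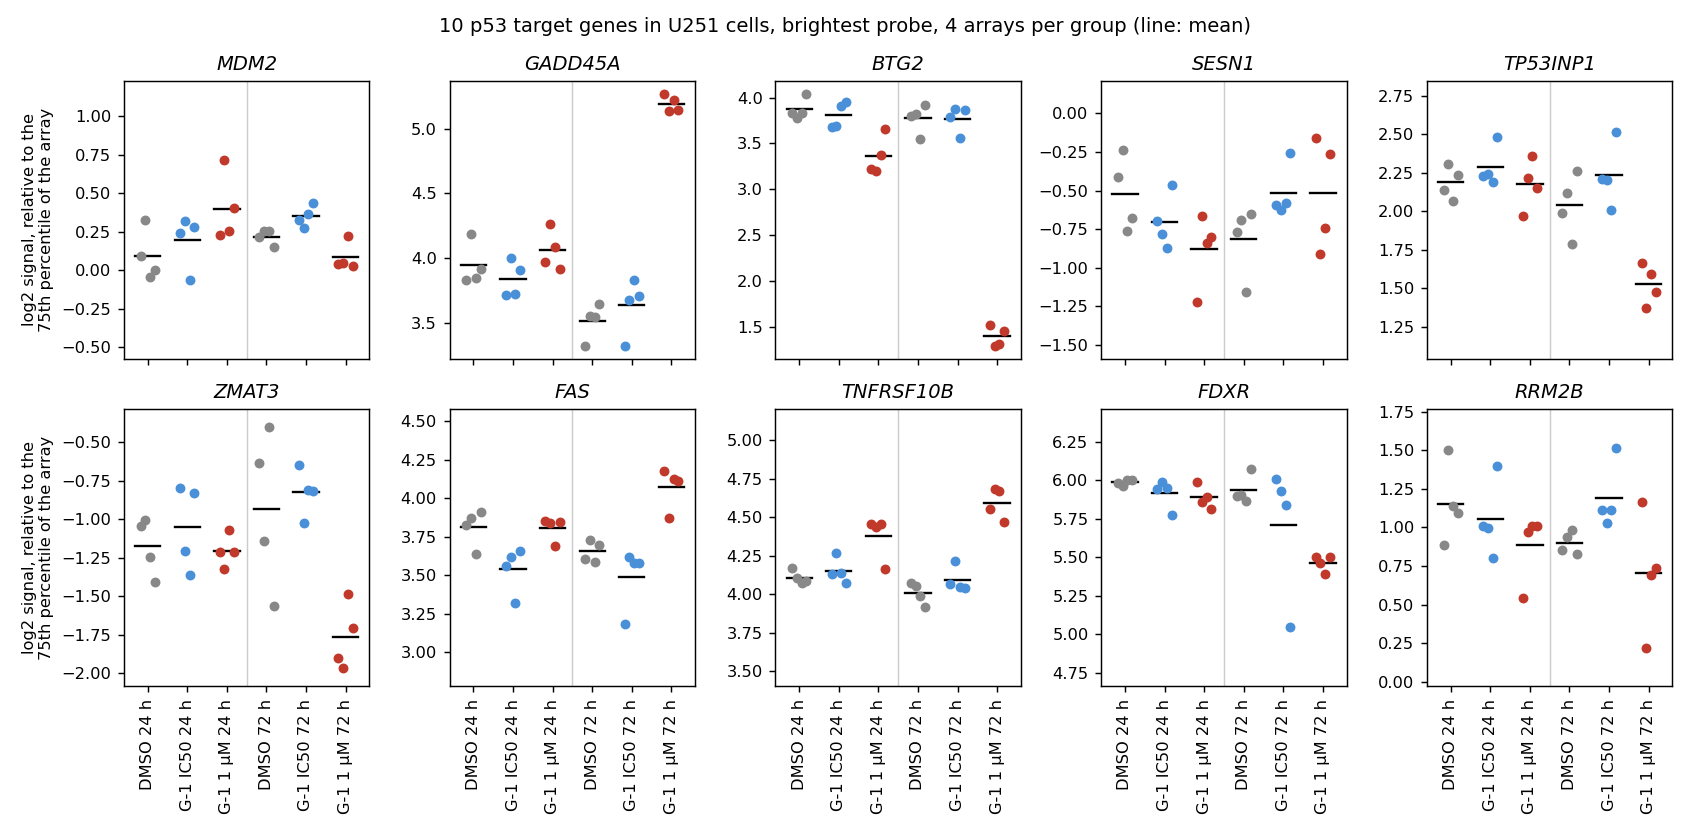
Log2 signal of the 10 p53 target genes after subtraction of the 75th percentile of the array (vertical axis) in the 6 groups of U251 cells, with 1 point per array and a line at the mean of 4 arrays. GADD45A stands between 5.14 and 5.27 and BTG2 between 1.29 and 1.52 in G-1 1 µM 72 h, away from all other groups, while the DMSO and G-1 IC50 points of most genes mix.

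At G-1 1 µM 24 h, MDM2 and TNFRSF10B rose and BTG2 fell, all by less than 2-fold, and the other 7 genes did not pass. This count of 3 of 10 stands beside 30.6% of all genes (20% higher and 10.5% lower), and 0 of 10 passed with a fold change above 2, beside 1.69%. The median log2 fold change of the 10 genes was -0.02 and that of all genes 0.04, and without DMSO 24 h replicate 2 that of the 10 genes was 0.02. Of the genes called, 65.5% were higher with the 75th percentile, 54.3% with quantile normalization and 44.2% with the 50th percentile, so directions of small changes at this dose depend on the scaling.

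BTG2, an antiproliferative protein that promotes mRNA deadenylation, was already lower at 24 h. Its log2 signals were 3.83, 3.78, 3.84 and 4.04 in DMSO 24 h and 3.22, 3.20, 3.37 and 3.66 in G-1 1 µM 24 h. The groups did not overlap, which held for 1 of the 10 genes at this dose and time and for 30.3% of all genes, and BTG2 fell by 0.51 (SE 0.11, adjusted p of limma 0.00175), a call that held under all scalings tried. At G-1 IC50 24 h the signals were 3.68, 3.68, 3.91 and 3.95, within or close to the range of DMSO.

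TNFRSF10B, the death receptor 5 for the ligand TRAIL, had log2 signals of 4.17, 4.10, 4.07 and 4.08 in DMSO 24 h and of 4.46, 4.44, 4.46 and 4.16 in G-1 1 µM 24 h. Of the treated arrays 3 lay above all DMSO arrays, and replicate 4 lay among them. It rose by 0.27 (SE 0.07, adjusted p of limma 0.00805), but did not pass with quantile normalization (0.18, adjusted p 0.0903), the 50th percentile (0.19, adjusted p 0.174) or normexp (0.21, adjusted p 0.0768).

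MDM2 had log2 signals of 0.09, 0.33, -0.05 and 0.00 in DMSO 24 h and of 0.22, 0.72, 0.25 and 0.40 in G-1 1 µM 24 h, and the groups overlapped. It rose by 0.31 (SE 0.10, adjusted p of limma 0.0286, exact permutation p 0.0857). The call was lost without any 1 of 4 arrays, DMSO 24 h replicates 1, 3 and 4 and G-1 1 µM 24 h replicate 2, with log2 fold changes between 0.20 and 0.31 and adjusted p values between 0.0521 and 0.123. It was also lost with the 50th percentile (0.23, adjusted p 0.331) and in a fit on only the arrays of the comparison (0.31, adjusted p 0.121). The second probe of MDM2 gave 0.32 (adjusted p 0.0166) and the dimmest 0.19 (adjusted p 0.266).

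At G-1 1 µM 72 h, GADD45A rose 3.20-fold and BTG2 fell 5.19-fold, 5 further genes changed by less than 2-fold, and the 10 genes split in direction. GADD45A, FAS and TNFRSF10B rose, BTG2, TP53INP1, ZMAT3 and FDXR fell, and MDM2, SESN1 and RRM2B did not pass. The count of 7 of 10 stands beside 66.1% of all genes at this dose and duration, and 2 of 10 passed with a fold change above 2 beside 12.3%. By direction, 3 rose beside 35.2% of all genes and 4 fell beside 31%. The groups did not overlap for 6 of 10, beside 58.7%. The median log2 fold change was -0.17 for the 10 genes and 0.03 for all genes, and that of the 10 genes was -0.08 without G-1 1 µM 72 h replicate 2 and -0.24 without replicate 1.

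**Figure D2:**
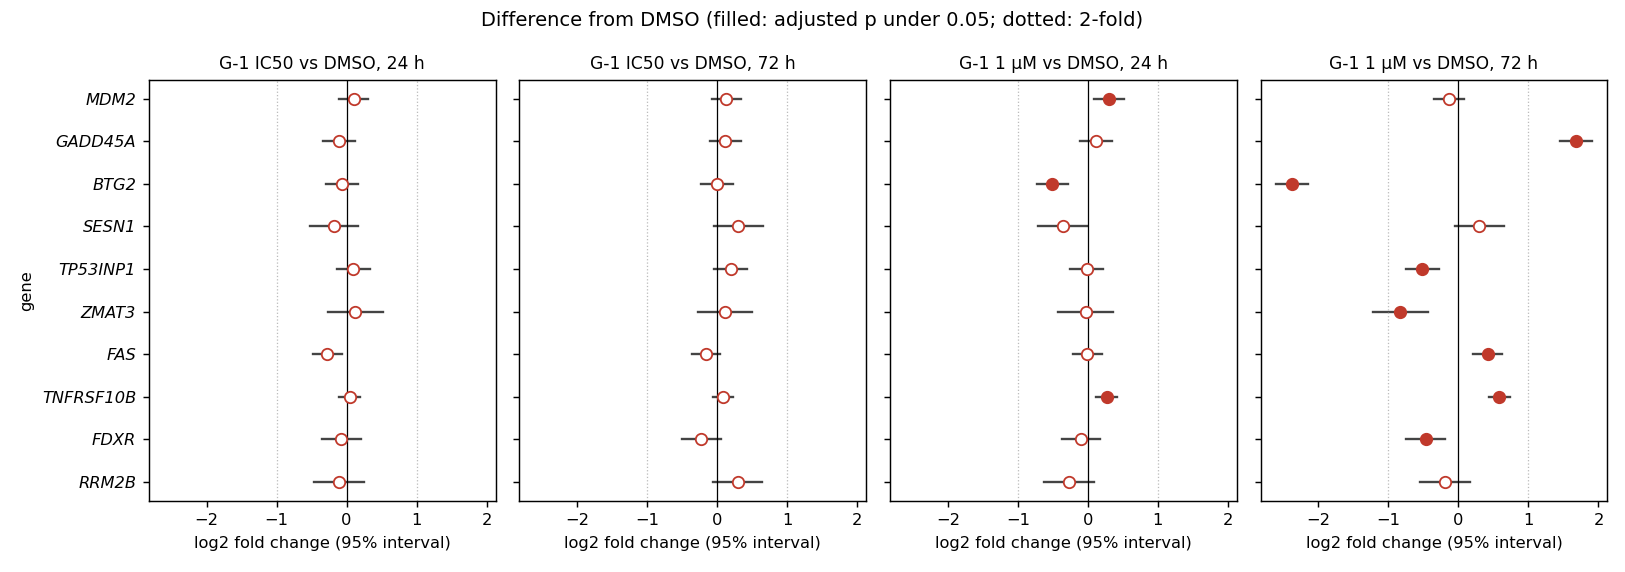
Log2 fold change against DMSO of the same duration (horizontal axis) with its 95% interval for the brightest probe of each of the 10 genes, in 4 comparisons; filled points passed at an adjusted p under 0.05, and dotted lines mark 2-fold. No gene is filled at G-1 IC50, 3 are at G-1 1 µM 24 h and 7 at G-1 1 µM 72 h, where GADD45A at 1.68 and BTG2 at -2.38 are the only ones beyond 2-fold.

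The first group by role is cell cycle arrest and stress response. GADD45A, a stress sensor that binds PCNA and the CDK1 kinase, had log2 signals of 3.32, 3.55, 3.55 and 3.65 in DMSO 72 h and of 5.27, 5.14, 5.22 and 5.15 in G-1 1 µM 72 h. Every treated array was above every other array of the series for this gene. The means were 3.52 ± 0.14 and 5.19 ± 0.06 (SD, n = 4), a log2 fold change of 1.68 (95% interval 1.45 to 1.90, adjusted p of limma 8.19e-11). At 24 h the signals were 3.97, 4.26, 4.09 and 3.92 against 3.83, 4.19, 3.85 and 3.92 in DMSO, and the difference of 0.11 did not pass (adjusted p 0.447). Within the third slide, GADD45A rose by 1.13 from 24 h to 72 h of G-1 1 µM (adjusted p 6.62e-08). In DMSO it fell by 0.43 over the same time (adjusted p 0.0357, 1 of 10 beside 3.34% of all genes), a call lost with the 50th percentile (adjusted p 0.228) and without any 1 of DMSO 24 h replicates 2, 3 and 4 and DMSO 72 h replicates 1, 2 and 3 (log2 fold changes of -0.46 to -0.35, adjusted p 0.0559 to 0.129).

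For GADD45A, the order of the group means from highest was G-1 1 µM 72 h (5.19), G-1 1 µM 24 h (4.06), DMSO 24 h (3.95), G-1 IC50 24 h (3.84), G-1 IC50 72 h (3.63) and DMSO 72 h (3.52). Only the step from the first to the next of these neighbours was free of overlap between arrays.

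BTG2 moved the other way and by the largest amount of the 10 genes. Its log2 signals were 3.80, 3.82, 3.55 and 3.92 in DMSO 72 h, 3.79, 3.87, 3.55 and 3.87 in G-1 IC50 72 h, and 1.52, 1.29, 1.31 and 1.46 in G-1 1 µM 72 h. The G-1 IC50 arrays lay on those of DMSO, and the G-1 1 µM arrays lay far below both. The log2 fold change was -2.38 (95% interval -2.60 to -2.15, adjusted p of limma 1.09e-12), and within the third slide BTG2 fell by 1.97 from 24 h to 72 h (adjusted p 4.01e-11). For both GADD45A and BTG2 at 72 h, the exact permutation p was 0.0286, the smallest possible, which any groups of 4 without overlap give.

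TP53INP1, which takes part in p53-dependent apoptosis and in autophagy, had log2 signals of 1.99, 2.12, 1.79 and 2.26 in DMSO 72 h and of 1.66, 1.37, 1.59 and 1.48 in G-1 1 µM 72 h. The groups did not overlap, and TP53INP1 fell by 0.51 (SE 0.11, adjusted p of limma 0.000506). Its dimmer probe also fell, by 0.58 (adjusted p 0.0402), with 3 of 4 arrays of G-1 1 µM 72 h well above background. ZMAT3, an RNA-binding zinc finger protein that regulates mRNA stability and splicing, had log2 signals of -0.64, -1.14, -0.40 and -1.57 in DMSO 72 h and of -1.90, -1.97, -1.49 and -1.71 in G-1 1 µM 72 h. Replicate 4 of DMSO 72 h lay within the treated range. ZMAT3 fell by 0.83 (SE 0.19, adjusted p of limma 0.000666, exact permutation p 0.0571), and by 0.23 under normexp background correction.

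SESN1 had log2 signals of -0.16, -0.91, -0.74 and -0.26 in G-1 1 µM 72 h, wide enough to enclose most of the DMSO 72 h arrays. The log2 fold change of 0.30 did not pass (95% interval -0.05 to 0.64, adjusted p of limma 0.122). Without G-1 1 µM 72 h replicate 2 it was 0.43 and passed (adjusted p 0.0314).

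The death receptors were the 1 group in which both genes rose. FAS, the receptor for FAS ligand, had log2 signals of 3.60, 3.73, 3.58 and 3.70 in DMSO 72 h and of 4.18, 3.87, 4.12 and 4.11 in G-1 1 µM 72 h. TNFRSF10B had 4.08, 4.05, 3.99 and 3.92 against 4.56, 4.68, 4.67 and 4.47. In both genes each treated array was above each DMSO array, with log2 fold changes of 0.42 for FAS (SE 0.10, adjusted p of limma 0.00086) and 0.59 for TNFRSF10B (SE 0.07, adjusted p of limma 5.39e-07). Within the third slide, both were higher at 72 h than at 24 h, by 0.26 for FAS (adjusted p 0.0349) and 0.22 for TNFRSF10B (adjusted p 0.0203).

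FAS was measured by 4 probes, and they did not move as one. At G-1 1 µM 72 h the second brightest also rose, by 0.55 (adjusted p 3.44e-05), while the third gave 0.21 (adjusted p 0.263) and the dimmest -0.10 (adjusted p 0.674). The dimmest was well above background on 2 of 4 arrays of G-1 1 µM 24 h and on 3 of 4 of G-1 1 µM 72 h. At 24 h, the 4 probes gave -0.01, 0.25, -0.39 and -0.17 from the brightest to the dimmest, and none passed.

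Of the genes for metabolism and nucleotide supply, FDXR, the mitochondrial reductase that passes electrons to ferredoxin, had log2 signals of 5.90, 5.91, 5.86 and 6.08 in DMSO 72 h and of 5.50, 5.46, 5.39 and 5.50 in G-1 1 µM 72 h. The groups did not overlap, and FDXR fell by 0.47 (SE 0.13, adjusted p of limma 0.00421). In G-1 IC50 72 h, 3 arrays were at 6.01, 5.93 and 5.84 and replicate 4 at 5.05. RRM2B had log2 signals of 1.16, 0.22, 0.69 and 0.74 in G-1 1 µM 72 h, which enclosed the DMSO arrays, and the log2 fold change of -0.20 did not pass (95% interval -0.55 to 0.16, adjusted p of limma 0.319). Its dimmer probe had -0.70, -0.52, -0.71 and -0.45 in DMSO 72 h and -0.94, -1.20, -0.93 and -0.92 in G-1 1 µM 72 h, without overlap, and fell by 0.40 (adjusted p 0.00233).

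MDM2, the negative regulator of p53, had log2 signals of 0.04, 0.04, 0.22 and 0.03 in G-1 1 µM 72 h, and the difference of -0.13 from DMSO 72 h did not pass (95% interval -0.35 to 0.08, adjusted p of limma 0.257). The second probe rose by 0.22 (adjusted p 0.0486) and the dimmest gave 0.14 (adjusted p 0.336), so the probes of MDM2 differed in sign at this time. Under normexp the brightest probe passed as lower (-0.19, adjusted p 0.0338). The interval of the brightest probe does not include a 2-fold change in either direction.

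**Figure D3:**
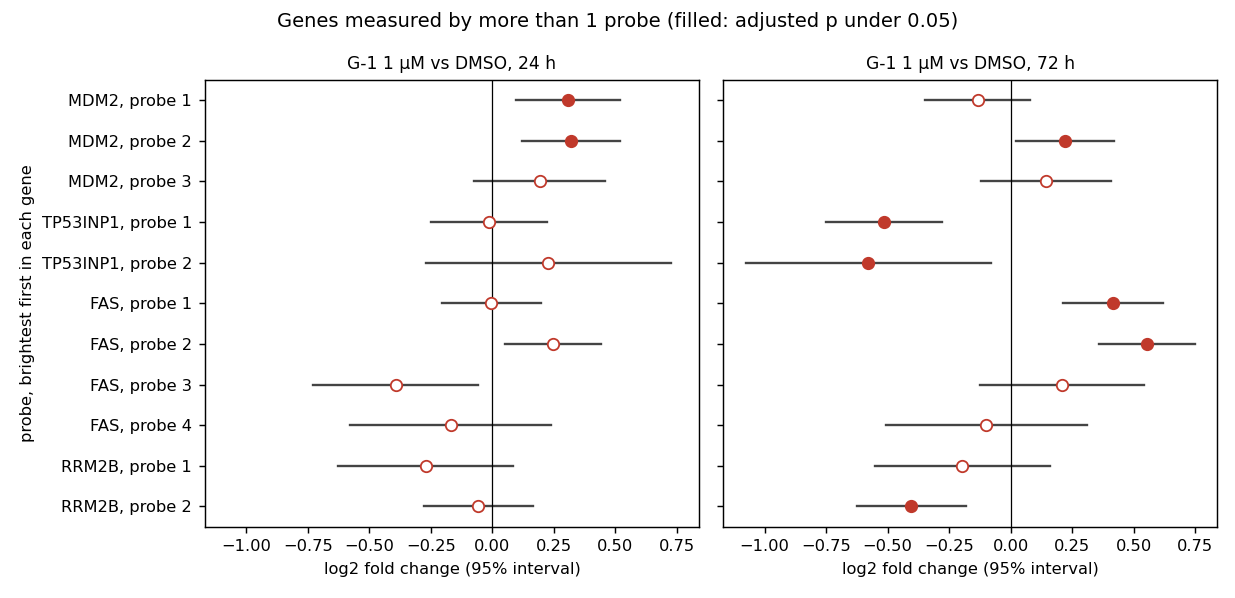
Log2 fold change of G-1 1 µM against DMSO (horizontal axis) with its 95% interval for each probe of the 4 genes with more than 1 probe, ordered from the brightest to the dimmest within a gene; filled points passed at an adjusted p under 0.05. At 72 h the 2 probes of TP53INP1 are both lower, while the probes of MDM2 (-0.13, 0.22 and 0.14) and of FAS (0.42, 0.55, 0.21 and -0.10) lie on both sides of 0.

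The difference from DMSO depended on duration at G-1 1 µM. Within the third slide, 8 of 10 genes differed between 72 h and 24 h of this dose, beside 43.2% of all genes: those named above, TP53INP1 (-0.65), ZMAT3 (-0.56), FDXR (-0.42) and MDM2 (-0.32). The other 2 probes of MDM2 gave -0.06 (adjusted p 0.655) and -0.05 (adjusted p 0.774), and the other 3 of FAS, between 0.19 and 0.38, did not pass either. The interaction, which is the log2 fold change at 72 h minus that at 24 h, passed for 8 of 10 genes beside 34.1% of all genes, and for GADD45A and BTG2 beyond 2-fold (2 of 10, beside 6.3%). It was 1.56 for GADD45A (adjusted p of limma 3.72e-07) and -1.87 for BTG2 (adjusted p 5.22e-08), and these calls held in the settings tried. The other 6 lay between -0.80 and 0.66, with adjusted p values between 0.0215 and 0.0385, and all 6 were lost with the 50th percentile or with no filter on dim probes. For MDM2 the other 2 probes gave -0.10 (adjusted p 0.619) and -0.05 (adjusted p 0.865), and the mean of its probes -0.20 (adjusted p 0.159). With the mean of its probes FAS was lost as well (0.35, adjusted p 0.0768), and the dimmer probe of TP53INP1 gave -0.81 (adjusted p 0.0769). Single arrays decided these calls too: MDM2 was lost without DMSO 24 h replicate 3 or G-1 1 µM 24 h replicate 2 (-0.39 and -0.33), TP53INP1 without DMSO 72 h replicate 4 or G-1 1 µM 24 h replicate 3 (-0.43 and -0.44), FAS without G-1 1 µM 24 h replicate 3 or 72 h replicate 1 (0.38 and 0.39), and TNFRSF10B without G-1 1 µM 24 h replicate 4 (0.24). ZMAT3 was lost without any 1 of DMSO 24 h replicate 4, DMSO 72 h replicates 1 and 3, G-1 1 µM 24 h replicate 3 and G-1 1 µM 72 h replicate 1 (-0.75 to -0.62), and SESN1 without any 1 of DMSO 24 h replicates 1 and 2, DMSO 72 h replicates 1 and 3, G-1 1 µM 24 h replicates 1 and 3 and G-1 1 µM 72 h replicates 1 and 4 (0.54 to 0.67). At G-1 IC50, 0 of 10 interactions passed with limma, beside 0.014% of all genes, and 0 of 10 had an unadjusted p under 0.05, beside 4.23%.

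The doses were also compared directly, with the same arrays of the higher dose as in the comparisons with DMSO. At 72 h, 8 of 10 genes differed, beside 65.1% of all genes. GADD45A (1.56), FAS (0.58) and TNFRSF10B (0.50) were higher at G-1 1 µM, and BTG2 (-2.38), ZMAT3 (-0.94), TP53INP1 (-0.71), RRM2B (-0.49) and MDM2 (-0.27) were lower. MDM2 was lower only by its brightest probe: the other 2 gave 0.13 (adjusted p 0.254) and 0.05 (adjusted p 0.723), and the mean of its probes -0.03 (adjusted p 0.755). The brightest probe of MDM2 was also lost without any 1 of G-1 1 µM 72 h replicates 1, 2 and 4 and G-1 IC50 72 h replicates 3 and 4 (-0.26 to -0.24), RRM2B without G-1 1 µM 72 h replicate 2 or G-1 IC50 72 h replicate 4 (-0.33 and -0.38), and FDXR passed as lower without G-1 IC50 72 h replicate 4 (-0.46). At 24 h, 3 of 10 differed beside 26.5% of all genes: BTG2 (-0.44), FAS (0.27) and TNFRSF10B (0.23), of which 2 had groups that did not overlap, beside 27.3%. MDM2 (0.21, adjusted p 0.14) passed there with the replicate block within each duration (adjusted p 0.0355) and with the mean of its probes (0.29, adjusted p 0.00795), while FAS was lost with the mean of its probes (0.20, adjusted p 0.178). With the 50th percentile the median of all genes moved from 0.047 to -0.117 at 24 h and from 0.049 to -0.113 at 72 h, and the share of calls that were higher from 68.6% to 19.1% and from 55.1% to 36.8%. FAS and TNFRSF10B at 24 h were lost with that scaling, FAS without any 1 of 6 arrays (G-1 1 µM replicates 1, 2 and 4 and G-1 IC50 replicates 1, 2 and 3, 0.19 to 0.29), and TNFRSF10B without any 1 of 5 (G-1 1 µM replicates 1, 2 and 3 and G-1 IC50 replicates 1 and 4, 0.20 to 0.22).

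MDM4, the partner of MDM2 in restraining p53, was measured by 3 probes that differed. At G-1 1 µM 24 h the brightest gave 0.00 (adjusted p of limma 0.999), and the other 2 rose by 0.23 (adjusted p 0.0316) and 0.33 (adjusted p 0.0339). At 72 h they gave -0.03 (adjusted p 0.826), 0.13 (adjusted p 0.146) and 0.20 (adjusted p 0.118).

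Other textbook targets of p53 were also split. CDKN1A, which encodes the cell cycle inhibitor p21, had log2 signals of -0.70 to -0.45 in DMSO 72 h, -0.37 to 0.12 in G-1 IC50 72 h and -0.30 to 0.44 in G-1 1 µM 72 h. It rose by 0.68 at G-1 1 µM 72 h (adjusted p of limma 0.00192), while 0.50 at G-1 IC50 72 h did not pass (adjusted p 0.303) although those groups did not overlap. PMAIP1, the proapoptotic BH3-only protein NOXA, stood at 3.07 to 3.33 in DMSO 72 h and at 4.56 to 4.93 in G-1 1 µM 72 h, and rose by 1.6. BBC3, the BH3-only protein PUMA, stood at 2.84 to 3.05 against 2.29 to 2.67, and fell by 0.43 (adjusted p 0.000705). BAX gave -0.20 by its brightest probe (adjusted p 0.111), while its dimmer probe rose by 0.55 (adjusted p 0.00113). CCNG1 gave 0.36 (adjusted p 0.0734). Of the nucleotide excision repair genes, DDB2 rose by 0.56 and XPC fell by 0.66.

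The wider pathway was followed in lists written from general knowledge. Of 68 other p53 targets, 55 were tested, of which 24 rose and 14 fell at G-1 1 µM 72 h (69.1%, beside 66.1% of all genes). At G-1 1 µM 24 h, 17 rose and 4 fell (38.2%, beside 30.6%), and 1 fell at G-1 IC50 72 h (1.82%, beside 0.906%). That gene was ALDH4A1, a mitochondrial enzyme of proline breakdown (-0.36, adjusted p of limma 0.0479). The call was lost with no filter on dim probes, in a fit on only the arrays of the comparison, within either slide, with the mean of all probes and without any 1 of the 8 arrays other than DMSO 72 h replicate 1, and the dimmer probe of ALDH4A1 gave 0.01 (adjusted p 0.994). The median log2 fold change of the 55 was 0.15 at G-1 1 µM 72 h, and that of all genes 0.03. At G-1 IC50 24 h, 0 of 55 passed with limma and 3 had an unadjusted p under 0.05, beside 4.64% of all genes, and at 72 h 9 of 55 did, beside 9.62%.

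Targets for cell cycle arrest comprised 10 tested genes, of which 5 rose and 2 fell at G-1 1 µM 72 h (70%, beside 66.1% of all genes). By direction, 35.2% of all genes rose and 31% fell. The stress cytokine GDF15 rose by 1.03, SFN, which encodes 14-3-3 sigma, by 0.93 and the polo-like kinase PLK2 by 0.75, whereas TOB1 fell by 0.77 and the atypical cyclin CCNG2 by 0.34. The other 2 probes of CCNG2 gave 0.20 (adjusted p of limma 0.356) and -0.05 (adjusted p 0.827). TOB1 belongs to the BTG/TOB family of antiproliferative proteins, as BTG2 does. Targets for cell death comprised 16 tested genes, of which 7 rose and 4 fell (68.8%, beside 66.1% of all genes). The nuclease AEN rose by 1.84, PMAIP1 by 1.6 and BCL2L1, which encodes the survival protein BCL-XL, by 1.00, and CYFIP2 fell by 0.51, BBC3 by 0.43 and CASP1 by 0.38.

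Of 9 DNA repair targets, 2 rose and 2 fell at G-1 1 µM 72 h (44.4%, beside 66.1% of all genes). Besides DDB2 and XPC, FANCC of the Fanconi anaemia core complex rose by 0.21, and MGMT, which removes alkyl groups from guanine, fell by 0.66. Of 11 metabolic and redox targets, 4 rose and 4 fell (72.7%, beside 66.1% of all genes). The sestrin SESN2 rose by 1.27, the mitochondrial superoxide dismutase SOD2 by 0.93 and SCO2 by 0.41, and CPT1C fell by 1.1, ALDH4A1 by 0.78 and the pantothenate kinase PANK1 by 0.50. The 2 probes of ALDH4A1 moved in opposite directions: the dimmer one rose by 0.98 (adjusted p of limma 7.49e-06), from -0.57 to 0.01 in DMSO 72 h to 0.48 to 0.69 in G-1 1 µM 72 h.

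Of 9 secreted and membrane targets, 6 rose and 2 fell at G-1 1 µM 72 h (88.9%, beside 66.1% of all genes). By direction, 35.2% of all genes rose and 31% fell. The median log2 fold change was 0.83 for the list and 0.03 for all genes. RRAD, a small GTPase of the RGK family, rose by 1.32 and PLTP, the phospholipid transfer protein, by 1.1, and TRIM22 fell by 0.97 and NINJ1 by 0.64.

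**Figure D4:**
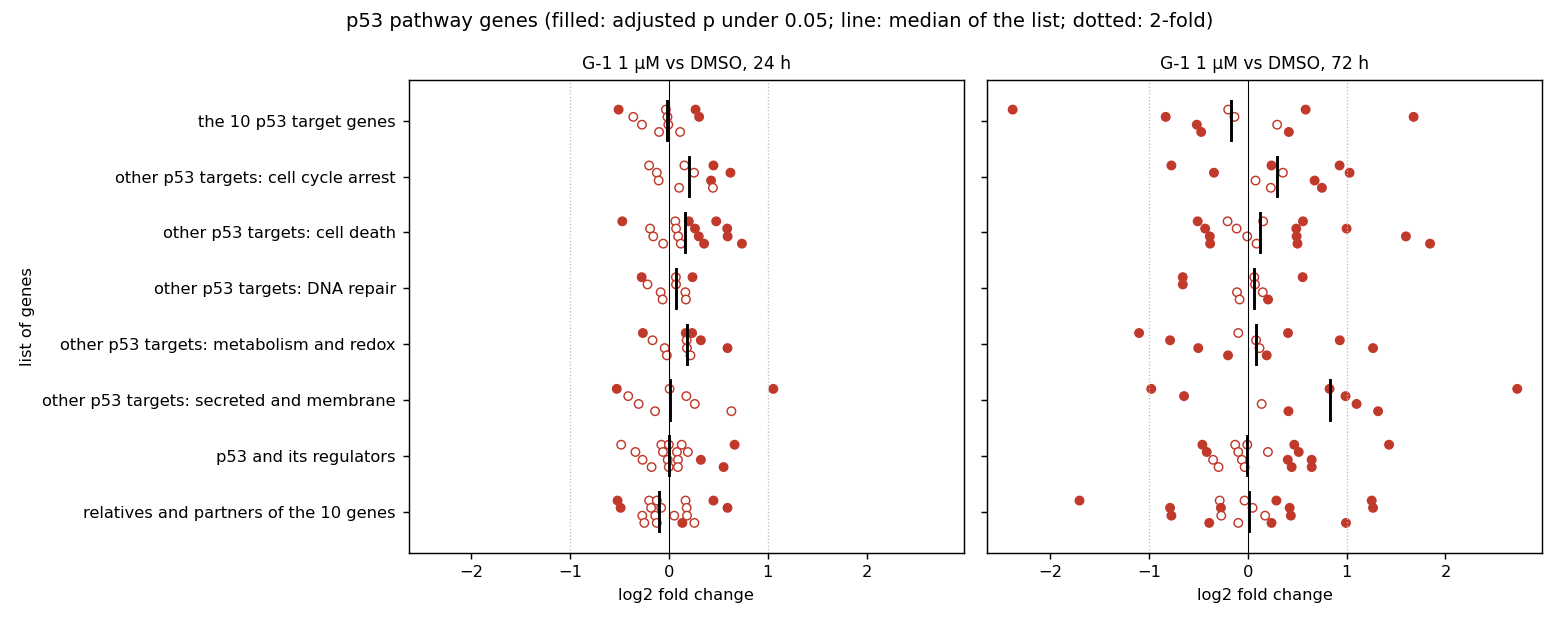
Log2 fold change of G-1 1 µM against DMSO (horizontal axis) for the tested genes of each list, with 1 point per gene by its brightest probe, filled where the adjusted p was under 0.05, and a line at the median of the list. At 72 h every list has filled points on both sides of 0, and the median is -0.17 for the 10 genes and 0.83 for the secreted and membrane targets.

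The regulators of p53 comprised 17 tested genes, of which 7 rose and 2 fell at G-1 1 µM 72 h (52.9%, beside 66.1% of all genes). Among relatives and partners of the 10 genes, 18 were tested, of which 7 rose and 5 fell (66.7%, beside 66.1% of all genes). The 3 sestrins parted: SESN2 rose by 1.27, SESN3 fell by 1.70, and SESN1 did not pass. GADD45G, a relative of GADD45A, rose by 1.25 (adjusted p of limma 0.00316). RRM2, the cell cycle subunit that RRM2B can replace in ribonucleotide reductase, rose by 0.99 (adjusted p 1.2e-05), and ZMAT1 fell by 0.79. SESN3 already fell by 0.52 and SESN2 rose by 0.59 at G-1 1 µM 24 h. At G-1 IC50, 0 of the 18 passed with limma at 24 h, beside 0.246% of all genes, and 0 at 72 h, beside 0.906%. There, 3 (24 h) had an unadjusted p under 0.05, beside 4.64% of all genes, and 4 (72 h) did, beside 9.62%.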

How the data were processed

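RNA of 24 U251 samples was labelled with Cy3 and hybridized to 1-colour Agilent arrays. The authors deposited the intensity of each spot, background-subtracted by Feature Extraction (12.1.1.1 in the headers, 10.7.3.1 in the submitters' processing notes), and a table of log2 values, which matched 75th-percentile-shifted log2 intensities centred per probe (median difference 0.0019 log2). Outlier and control spots were left out, replicate spots averaged, and each array shifted to its own 75th percentile. The 22970 probes that some group had well above background in every one of its 4 arrays were fitted with limma 3.58.1 in R 4.3.3, with 6 group means. Benjamini-Hochberg adjustment covered all of these probes, and the number of arrays limits the precision. Probes were named through the RefSeq gene table (35032 of 58201 probes). The fit was tested on simulated arrays with independent noise and no slide offset, so that test does not cover an effect of the slide. The 10 genes, the lists and the tests were chosen with earlier results of these data known. Named besides the 10 genes were MDM4, 7 textbook targets, per list up to 3 higher and 3 lower genes with the largest changes among those that passed at G-1 1 µM 72 h, and list genes beyond 2-fold elsewhere. Some genes that this rule names are not reported here. Alternatives were other scalings, filters, probe rules, blocks and tests, the deposited table, and each array left out in turn.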

Additional observations from a re-analysis of the deposited data

Results flagged for a closer look

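In a group of 4 arrays, an array was set apart when its gap to the nearest other array exceeded Dixon's 95% critical share of the range of the group. Over the 10 genes and 6 groups, 60 sets of 4 were examined, of which chance would mark about 3, and 7 were marked. They were MDM2 in G-1 1 µM 72 h replicate 3 (0.22, others 0.03 to 0.05), SESN1 in G-1 IC50 72 h replicate 4 (-0.26, others -0.63 to -0.58), FAS in G-1 1 µM 24 h replicate 3 (3.69, others 3.84 to 3.85) and in G-1 IC50 72 h replicate 1 (3.18, others 3.58 to 3.62), TNFRSF10B in G-1 1 µM 24 h replicate 4 (4.17, others 4.44 to 4.46) and in G-1 IC50 72 h replicate 2 (4.22, others 4.04 to 4.06), and RRM2B in G-1 1 µM 24 h replicate 1 (0.54, others 0.97 to 1.01). No replicate of 1 group was marked in more than 1 gene.

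For 8 genes, the difference between G-1 1 µM and DMSO was not the same at 72 h as at 24 h by the interaction test of limma. The change of the log2 fold change was 1.56 for GADD45A (0.11 at 24 h, 1.68 at 72 h) and -1.87 for BTG2 (-0.51, -2.38). It was -0.80 for ZMAT3 (-0.03, -0.83), 0.66 for SESN1 (-0.36, 0.30), -0.50 for TP53INP1 (-0.01, -0.51), -0.44 for MDM2 (0.31, -0.13), 0.42 for FAS (-0.01, 0.42) and 0.32 for TNFRSF10B (0.27, 0.59). The value of MDM2 is that of its brightest probe, and its other 2 probes gave -0.10 and -0.05. Adjusted p values of the latter 6 were between 0.0215 and 0.0385.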

How the results depend on the processing

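GADD45A and BTG2 at G-1 1 µM 72 h passed in each of the 22 alternatives, with log2 fold changes of 1.57 to 1.72 and -2.45 to -2.18. No called value changed sign in any alternative run. In the main fit, the count of changed genes among the 10 was 7 at G-1 1 µM 72 h and 3 at 24 h. At 72 h RRM2B also passed as lower with the mean of its probes (-0.30, adjusted p of limma 0.0103). MDM2 did so under normexp (-0.19, adjusted p of limma 0.0338). The dimmer probe of RRM2B and the second probe of MDM2 also passed at 72 h, as given above.

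A fold change above 2 left 2 of 10 at G-1 1 µM 72 h against DMSO, 0 at 24 h, 2 between the doses at 72 h with 0 at 24 h, 2 for the interaction and 0 for DMSO 72 h against 24 h, and, of the other pathway genes, 12 of 56 at 72 h, 1 of 27 at 24 h and 0 of 1 at G-1 IC50 72 h. The methods' t-test with that fold change gave 2, 0, 2 and 0 for the same 4 comparisons and 0 for DMSO, and 11 (72 h), 1 (24 h) and 0 (G-1 IC50 72 h) other genes unadjusted, or 10, 1 and 0 after Benjamini-Hochberg adjustment.

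With the 50th percentile, 1 gene passed at G-1 1 µM 24 h, 1 against G-1 IC50 at 24 h, 2 interactions and 0 in DMSO, with 15 other pathway genes at G-1 1 µM 24 h and 0 at G-1 IC50 72 h. Against G-1 IC50 at 24 h, quantile normalization, normexp and a fit on only the arrays of the comparison gave 1. The interaction count was 5 with normexp and 2 with no filter on dim probes. DMSO 72 h against 24 h gave 0 with no filter, with only its own arrays and with the slide as a block. ALDH4A1 at G-1 IC50 72 h was lost (count 0) with no filter, with only the arrays of the comparison, within either slide alone and with the mean of all probes. The causes were not tested.

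Genes of the 10 without overlap between groups numbered 0, 3, 1 and 6 (in order: lower dose 24 h, lower dose 72 h, higher dose 24 h, higher dose 72 h), and 2 against G-1 IC50 at 24 h. Quantile normalization gave 2 at G-1 1 µM 24 h and 1 against G-1 IC50 at 24 h, the 50th percentile 1 for the latter, and normexp 1, 0 and 2 for the first 3 and 1 for the latter.

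Leaving out 1 array at a time, 2 to 3 of 10 passed at G-1 1 µM 24 h, 7 to 8 at 72 h, 1 to 2 and 6 to 8 against G-1 IC50, 4 to 8 interactions, 0 to 1 in DMSO and 0 at G-1 IC50, with 20 to 28, 51 to 56 and 0 to 1 other pathway genes at G-1 1 µM 24 h and 72 h and G-1 IC50 72 h.

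Arrays with the same replicate number did not all deviate together (median correlation 0.116, above 0.1 in 33 of 60 pairs, against -0.042 for different numbers). Within a duration they did so more often, with a median of 0.195 and 17 of 24 pairs above 0.1, against -0.045 and 15 of 72 for different numbers. The methods compare groups without pairing, so the main fit did not take the numbers to pair the samples. Whether arrays with the same number share a batch was not tested. With the replicate block, 0, 0, 3 and 7 of the 10 passed in the 4 comparisons with DMSO. The replicate block within each duration raised the other pathway genes at G-1 IC50 72 h from 1 to 3, and changed no call of the 10 against DMSO. Between the doses at 24 h it added MDM2.

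Small changes of dim probes are limited by signal over background. Mean signals lie below the 75th percentile for ZMAT3, SESN1 and the dimmer probes of TP53INP1 and RRM2B. The same holds for the second and dimmest probes of MDM2 and the third and dimmest of FAS. All calls of G-1 1 µM against DMSO or against G-1 IC50 carry the slide that holds this dose.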

Other observations

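Among the cell type markers, the radial glia and glioma marker FABP7 and the neuronal marker RBFOX3 were beyond 2-fold at G-1 1 µM 24 h. FABP7 stood at 5.12 to 5.82 in DMSO 24 h, 6.10 to 6.88 in G-1 IC50 24 h and 6.19 to 7.06 in G-1 1 µM 24 h, and rose by 1.05 at the higher dose (adjusted p of limma 0.000974), while 0.96 at G-1 IC50 did not pass (adjusted p 0.065). RBFOX3 stood at 1.79 to 2.69 in DMSO 24 h and at 0.94 to 1.59 in G-1 1 µM 24 h, and fell by 1.24 (adjusted p of limma 0.00124).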
